A study of Arabidopsis thaliana with 9 samples.

Results

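A group of 79 genes of Arabidopsis thaliana seedlings stood at least 2 times above the wild type in both the cop1-6 mutant and the libraries labelled cor27cor28. The members were chosen from the deposited FPKM values, that is, fragments counted per gene and corrected for transcript size and library size. For each of 26984 genes the mean of each genotype was taken, 1 FPKM was added, and the ratio to the wild type had to reach 2 in both mutants. The ratio was reached by 539 genes in cop1-6 (2.0%) and by 170 genes in cor27cor28 (0.630%), and by 80 genes in both (0.296%). UGT74E2, AT1G05680, was left out by the rule, which gave 79. Both comparisons share the same 3 wild-type libraries, so their overlap is a count fixed by the rule and no result. The values that chose the members are given below as a description, without a test.

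All plants were whole seedlings of 7 days, grown in short days and harvested in the dark at ZT20, and total RNA was sequenced. The 3 groups were the wild type Col-0, the mutant cop1-6 and the double mutant cor27cor28, with 3 libraries each. COP1, the gene named by the first mutant, encodes a ubiquitin ligase that holds back light-driven development in the dark. COR27 and COR28 are small cold- and clock-regulated proteins that COP1 is known to target. The sources used here do not say whether libraries of a genotype came from separate batches of plants, so a p-value measures the spread among these libraries, which may be technical. In RNA from whole seedlings, fewer cells of a type and less RNA per cell cannot be told apart.

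Of the 79 members 6 are on a list of genes for stress signalling from the mitochondrion to the nucleus. In that pathway the transcription factors ANAC013 and ANAC017 are held in the endoplasmic reticulum membrane, are released when respiration is disturbed, and bind a promoter element called the mitochondrial dysfunction motif. Other members belong to detoxification, in which glutathione S-transferases and glycosyltransferases tag reactive compounds and MATE carriers export them, to the response to low oxygen, in which ethanol fermentation takes over, and to the AZI1 cluster of small lipid-transfer proteins known from defence priming.

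Library-wide facts that touch the members were as follows. FPKM sums ran from 584878 to 612462 in the wild type, from 515929 to 532655 in cop1-6 and from 548055 to 562621 in cor27cor28. Genes with at least 1 FPKM numbered 16520 to 16562, 16062 to 16244 and 16653 to 16974 in the same order. In both quantities the genotypes did not overlap, and the rule used the FPKM without a further scaling. Read numbers were not among the values used here, so the depth behind a value is unknown. COR27 (AT5G42900) stood at 12.5, 17.35 and 16.2 FPKM in the wild type, at 2.45, 6.71 and 7.46 in cop1-6 and at 48.0, 50.1 and 47.9 in cor27cor28. COR28 (AT4G33980) stood at 2.73, 1.92 and 3.08, at 0.134, 0.245 and 0.130, and at 2.49, 1.48 and 2.71. COR27 was higher in every library labelled cor27cor28 than in every wild-type library, and COR28 overlapped the wild type. Neither was lower in every library labelled cor27cor28 than in the wild type. The sources used here do not state the kind of lesion, so directions for that mutant rest on the labels. COP1 was not analysed here. Seed marker genes, summed over 9 genes, gave 0.307 to 5.15 FPKM in the wild type, 14.3 to 34.3 in cop1-6 and 0.390 to 2.99 in cor27cor28, with none at 0 throughout. Root marker genes, summed over 12 genes, gave 61.5 to 66.1, 33.1 to 37.1 and 48.4 to 57.9 FPKM, again with none at 0 throughout. Their part in the members' values was not tested.

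One library sets much of the picture. In cop1-6 replicate 3, 43 of the 79 members (54.4%) were at least 2 times above both other cop1-6 libraries, against 1.80% of the 17075 genes that entered tests. It was the highest cop1-6 library for 68 members (33.2% of tested genes), while cop1-6 replicate 2 was the lowest for 68 (44.0% of tested genes). The rule chose on the cop1-6 mean, which includes replicate 3, so these member shares follow in part from the rule. Without replicate 3, 38 members kept both ratios and 41 lost the cop1-6 ratio, and 2 other genes came in. Together the members held 0.0797% to 0.116% of all FPKM in the wild type, 0.157% to 0.891% in cop1-6 and 0.477% to 0.506% in cor27cor28. Cop1-6 replicate 3 is the top of the cop1-6 range. The 38 members that kept the ratio had library medians of 1.47, 2.63 and 2.67 FPKM in the wild type, 10.2, 7.30 and 13.9 in cop1-6 and 10.6, 10.6 and 9.48 in cor27cor28. For the other 41 the medians were 0.966, 1.43 and 1.02 FPKM, then 1.80, 1.70 and 16.4, then 4.71, 3.64 and 4.40. By these medians the first set was above the wild type in every mutant library, and the second most clearly in cop1-6 replicate 3 and the 3 cor27cor28 libraries. The split itself uses cop1-6 replicates 1 and 2, so their medians follow in part from it. Single members of the first set differ, since AT1G53542 was at 0 in 3 mutant libraries and AT1G73600 in cop1-6 replicate 2, at 21.8 FPKM, lay below the 25.6 FPKM of wild type replicate 3. What set cop1-6 replicate 3 apart was not tested.

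**Figure D1:**
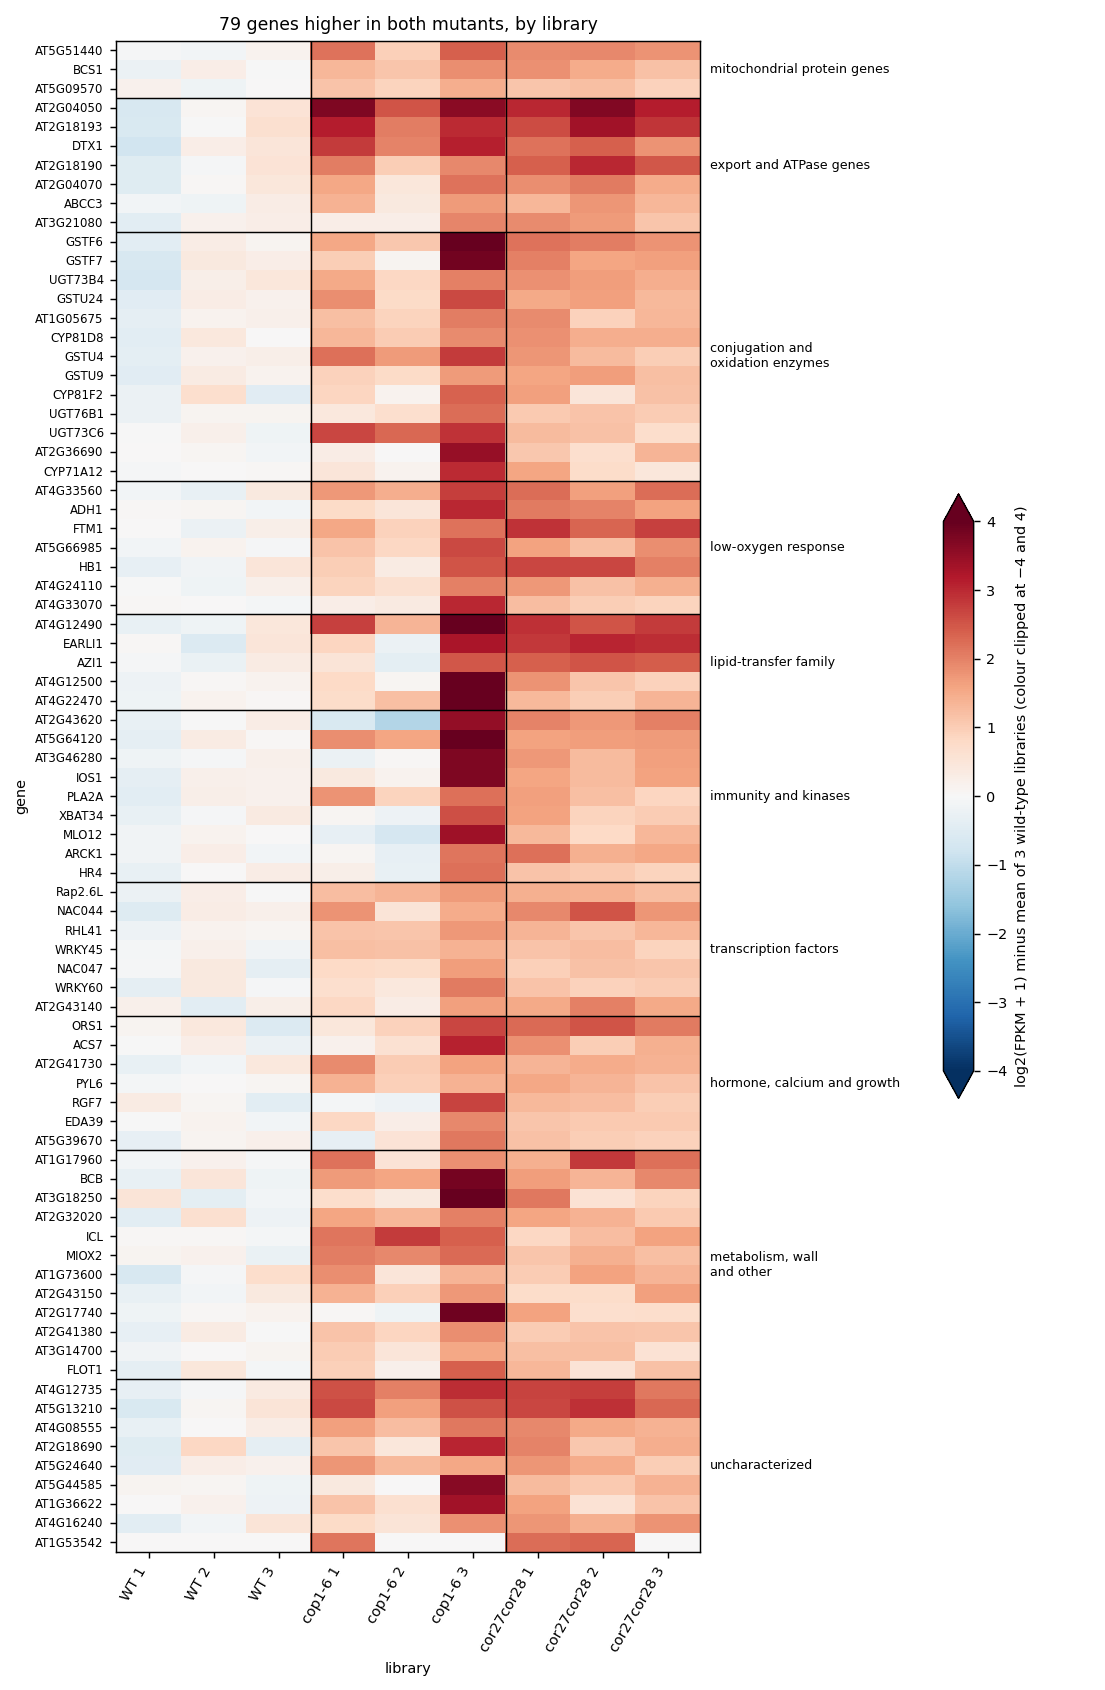
Rows are the 79 members, ordered by role, columns are the 9 libraries, and colour is log2(FPKM + 1) minus the wild-type mean, with the scale ending at -4 and 4. Blue is below and red above the wild-type mean, and cop1-6 replicate 3 is the highest cop1-6 library for 68 of 79 members.

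**Figure D2:**
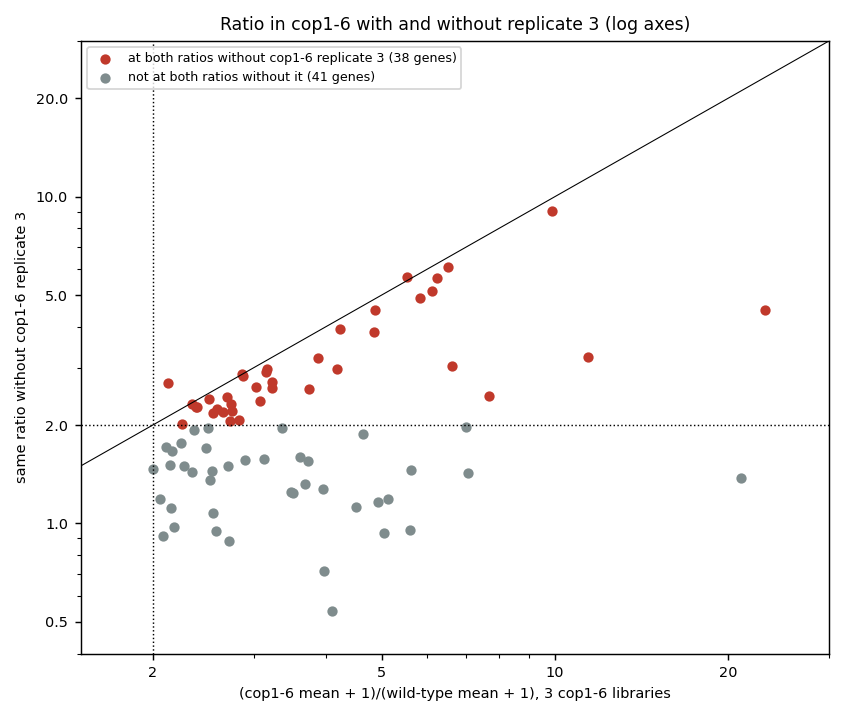
Each point is a member, with its cop1-6 ratio to the wild type from all 3 libraries on the horizontal log axis and from replicates 1 and 2 on the vertical log axis. The 38 members above the line at 2 kept the ratio and the 41 below it did not.

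Most members were low in the wild type. Wild-type means had a median of 1.63 FPKM, 29 members were under 1 FPKM on average, and 23 reached 1 FPKM in no wild-type library. Only 11 had a wild-type mean of at least 10 FPKM, and the highest was AZI1. The median mean was 8.29 FPKM in cop1-6 and 6.12 in cor27cor28. Ratios ran from 2.01 to 23.2 in cop1-6 with a median of 3.12, and from 2.003 to 9.38 in cor27cor28 with a median of 2.70. From cop1-6 replicates 1 and 2 alone the ratio ran from 0.541 to 9.03, with a median of 1.97. All cop1-6 libraries stood above all wild-type libraries for 54 members (12.9% of tested genes). The same held for all cor27cor28 libraries in 77 members (28% of tested genes), and for both mutants in 54 (5.19%). Since the rule chose on these values, nothing is read from those counts.

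A promoter element that the rule did not use was present in some of the members. Windows from 250 bases before to 50 bases after the annotated gene start were read from the TAIR10.1 genome with the RefSeq gene starts, and all 79 members had one. The mitochondrial dysfunction motif was found on either strand in 16 of 79 member windows (20.3%), against 386 of 26983 windows of all genes (1.43%). By the same reading it was in 12 of 459 genes at the ratio in cop1-6 alone (2.61%) and in 8 of 90 at the ratio in cor27cor28 alone (8.89%). Among members that kept the ratio without cop1-6 replicate 3 it was in 13 of 38 (34.2%), and among the others in 3 of 41 (7.32%). The matches below were chosen because they lie upstream of members whose levels are described next; all are in TAIR10.1, written 5′ to 3′ on the gene's strand, with the motif in capitals.
AT2G04050, minus strand, chr2:1339651-1339703, motif 215 bases before the gene start: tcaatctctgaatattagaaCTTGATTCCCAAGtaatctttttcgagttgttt
AT2G04050, minus strand, chr2:1339592-1339644, motif 156 bases before the start: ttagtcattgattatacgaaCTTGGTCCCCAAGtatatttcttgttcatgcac
AT2G18193, minus strand, chr2:7919403-7919455, 90 bases before the start: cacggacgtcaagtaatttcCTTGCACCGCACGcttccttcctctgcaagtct
AT2G18190, minus strand, chr2:7916122-7916174, 282 bases before the start and so outside the counted window: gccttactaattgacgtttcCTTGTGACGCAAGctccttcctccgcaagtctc
AT5G51440, plus strand, chr5:20891033-20891085, 110 bases before the start: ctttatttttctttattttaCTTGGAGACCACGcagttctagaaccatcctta
AT4G12735, minus strand, chr4:7494311-7494363, 109 bases before the start: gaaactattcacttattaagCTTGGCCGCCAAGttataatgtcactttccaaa
AT5G24640, plus strand, chr5:8436252-8436304, 80 bases before the start: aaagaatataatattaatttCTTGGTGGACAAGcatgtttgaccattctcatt
AT1G05675, minus strand, chr1:1702825-1702877, 108 bases before the start: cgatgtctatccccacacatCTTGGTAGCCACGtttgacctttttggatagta
NAC044, plus strand, chr3:228990-229042, 65 bases before the start: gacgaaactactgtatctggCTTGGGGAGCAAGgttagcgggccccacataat
ADH1, plus strand, chr1:28975016-28975068, 219 bases before the start: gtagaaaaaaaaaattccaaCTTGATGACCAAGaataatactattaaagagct
ADH1 and AT4G12735 each have another match that is not printed, 113 and 181 bases before the start. A match of letters is a description, and whether a factor binds there was not tested.

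The other members with the motif in the window were AT1G17960, UGT73C6, AT2G41730, AT3G14700, AT3G21080, AT4G08555, CYP81D8 and AT5G09570. ADH1, AT3G14700 and AT3G21080 were the 3 of the 16 that did not keep the ratio without cop1-6 replicate 3. UGT74E2, left out by the rule, also has the motif in its window, and stood at 0.545, 2.11 and 2.49 FPKM in the wild type, at 28.8, 15.3 and 33.0 in cop1-6 and at 14.1, 17.1 and 14.9 in cor27cor28. In a window of 500 bases upstream, chosen after the data were seen, 14 members had the motif (17.7%), against 2.101% of all genes.

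A second element, the W-box, which WRKY transcription factors bind, was present in 45 of 79 member windows (57.0%), against 32.3% of all genes. It was searched as TTGACC or TTGACT on both strands. Its share was 55.3% in members that kept the ratio without cop1-6 replicate 3 and 58.5% in the others, unlike the first motif. It was in 38.6% of genes at the ratio in cop1-6 alone and in 33.3% of those at the ratio in cor27cor28 alone. The stretches below are from 3 members with high values in cop1-6 replicate 3 and show W-boxes close to the gene start, in capitals; GGTCAA and AGTCAA are the reading of the box on the other strand.
AT2G43620, minus strand, chr2:18095146-18095191: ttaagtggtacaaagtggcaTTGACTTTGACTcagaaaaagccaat
AT3G46280, minus strand, chr3:17008553-17008598: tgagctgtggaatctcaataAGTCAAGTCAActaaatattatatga
GSTF7, minus strand, chr1:660018-660063: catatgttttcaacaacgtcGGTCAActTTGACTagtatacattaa
The as-1 core TGACG, read by TGA factors in detoxification, was in 36.7% of member windows and in 23.0% of all. Its letters can overlap those of the ACGT core, which was in 63.3% and 49.9%, the G-box CACGTG, which contains it, in 11.4% and 7.66%, and the heat shock element GAANNTTC in 19.0% and 11.6%. The evening element AAAATATCT of clock-driven genes was in 5.06% of member windows against 2.79% of all. Other elements were in a smaller share of member windows than of all. The CCA1 binding site AAAAATCT was in 1 of 79 windows against 7.92% of all, the PIF box CACATG in 5.06% against 12.9%, and the site II element TGGGCC in 6.33% against 15.4%. Shares for the telobox AAACCCTA were 7.59% and 6.24%, for the MYB site ACCTACC 2.53% and 1.38%, and for the dehydration element CCGAC 12.7% and 15.05%.

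**Figure D3:**
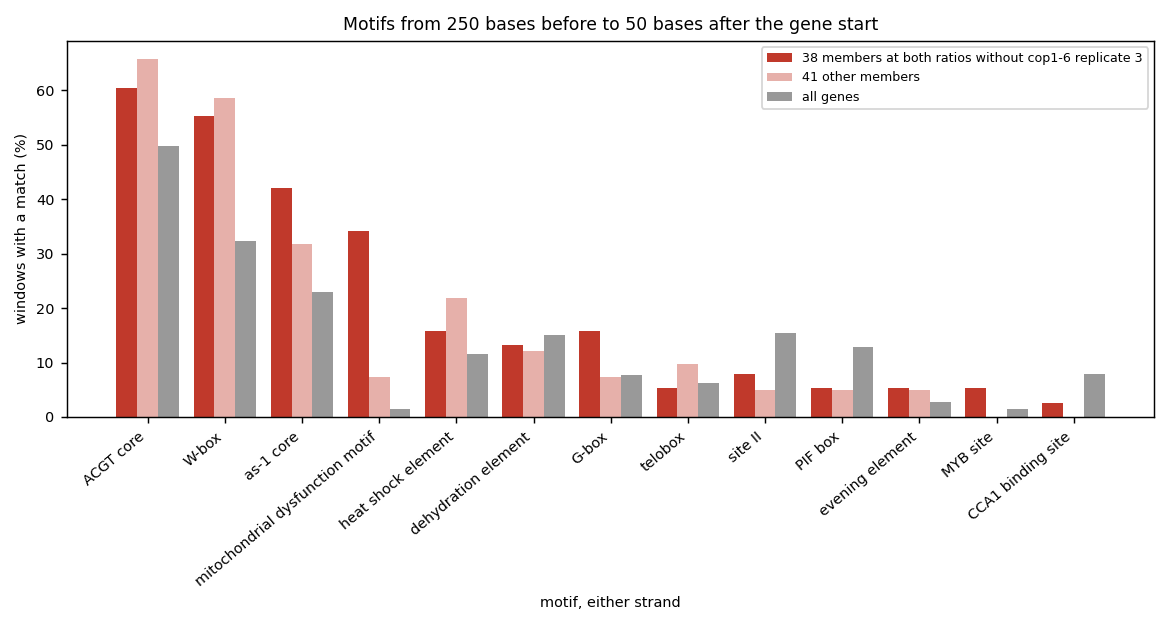
Bars give the percent of promoter windows with each motif, for the 38 members that kept both ratios without cop1-6 replicate 3, for the 41 other members, and for all genes. The mitochondrial dysfunction motif lies at 34.2% in members that kept the ratio and at 7.32% in those that did not, while the W-box lies at 55.3% and 58.5%.

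The 3 members for mitochondrial proteins were above the wild type in all libraries of both mutants, as were 54 of all 79 members (5.19% of tested genes). AT5G51440, a small heat shock protein of the mitochondrion, stood at 2.31, 2.17 and 2.73 FPKM in the wild type, at 14.3, 5.55 and 16.7 in cop1-6 and at 11.5, 11.9 and 10.8 in cor27cor28. All 6 mutant libraries lay above the wild type, cop1-6 replicate 2 being the lowest of them, and the ratios were 3.87 and 3.65. BCS1 (AT3G50930, also known as OM66), an ATPase of the outer mitochondrial membrane, was at 0.327, 0.846 and 0.521 FPKM, then 2.91, 2.33 and 4.58, then 4.50, 3.35 and 2.52. AT5G09570, a small twin-cysteine protein of the mitochondrion, was at 1.60, 1.07 and 1.33 FPKM, then 4.07, 3.35 and 5.35, then 3.97, 4.37 and 3.43. For both genes no mutant library overlapped the wild type, and all 3 genes kept the ratio without cop1-6 replicate 3.

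Export carriers and ATPases gave the highest pair of ratios. AT2G04050, a MATE efflux carrier on chromosome 2 at 1337180 to 1339468, stood at 3.12, 5.81 and 8.37 FPKM in the wild type, at 84.9, 35.3 and 77.9 in cop1-6 and at 50.4, 81.6 and 55.4 in cor27cor28. Its means were 5.77 ± 2.62, 66.0 ± 26.8 and 62.5 ± 16.8 FPKM (SD, n = 3), the ratios were 9.90 and 9.38, and the cop1-6 ratio without replicate 3 was 9.03. No mutant library came near the wild type. Its direct neighbour DTX1, another MATE carrier, was at 4.52, 10.1 and 12.2 FPKM, then 64.2, 35.7 and 79.2, then 41.2, 47.5 and 31.1, again with no overlap. Coding sequences of the pair are 87.8% identical, so how reads were shared between them is uncertain. AT2G04070, another MATE gene nearby, was at 0.144 to 1.17 FPKM in the wild type and 1.19 to 6.13 in the mutants. Its identity to the pair was not measured, so whether its level is uncertain in the same way is unknown.

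AT2G18193, an AAA-type ATPase on chromosome 2 at 7917413 to 7919345, stood at 1.34, 2.53 and 4.62 FPKM in the wild type, at 30.8, 13.8 and 27.2 in cop1-6 and at 21.1, 35.9 and 25.1 in cor27cor28, with ratios of 6.51 and 7.41. Its neighbour AT2G18190 was at 0, 0.363 and 1.06 FPKM, then 4.78, 1.80 and 4.31, then 6.43, 10.3 and 6.86. The cor27cor28 libraries of AT2G18190 lay above all of cop1-6, which was not so for AT2G18193. The pair is 86.5% identical in coding sequence, so the split of reads between them is uncertain. ABCC3, an ABC transporter of the vacuole membrane, was at 10.01, 9.43 and 13.4 FPKM, then 29.8, 14.5 and 37.1, then 28.6, 39.2 and 28.5, which is no overlap, with cop1-6 replicate 2 closest to the wild type. Of the 7 genes in this group, 5 kept the ratio without cop1-6 replicate 3. In all 7 both mutants lay above the wild type, as in 54 of all 79 members (5.19% of tested genes).

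Conjugating and oxidizing enzymes made up 13 members, of which 7 kept the ratio without cop1-6 replicate 3 and 7 were at least 2 times higher there than in both other cop1-6 libraries. GSTU24, a tau-class glutathione S-transferase, stood at 1.73, 3.66 and 3.24 FPKM in the wild type, at 12.6, 5.46 and 22.4 in cop1-6 and at 9.86, 10.9 and 8.24 in cor27cor28. GSTU4, of the same class, was at 0.134, 0.673 and 0.763 FPKM, then 5.86, 3.88 and 9.46, then 4.08, 2.61 and 1.94. In both genes all mutant libraries were above the wild type. The phi-class pair was different. GSTF6 was at 13.3, 22.3 and 19.6 FPKM, then 54.4, 39.0 and 349.9, then 83.8, 77.9 and 64.5, and GSTF7 at 8.85, 19.4 and 17.5, then 29.7, 15.6 and 225, then 61.9, 45.7 and 47.0. For GSTF7 cop1-6 replicate 2 lay within the wild-type range, and in both genes replicate 3 far above every other library. Their coding sequences are 94.7% identical and they lie side by side, so the level of each is uncertain.

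Among the glycosyltransferases, UGT73C6, which acts on flavonols and brassinosteroids, stood at 1.10, 1.44 and 0.917 FPKM in the wild type, at 12.8, 9.56 and 15.01 in cop1-6 and at 4.11, 3.79 and 2.51 in cor27cor28. The 3 groups did not overlap, with cop1-6 on top. UGT73B4 was at 0.544, 1.90 and 2.34 FPKM, then 6.09, 3.37 and 8.95, then 7.70, 6.82 and 5.79. AT1G05675, the neighbouring relative of UGT74E2, was at 0.155, 0.641 and 0.726 FPKM, then 2.42, 1.76 and 5.14, then 4.55, 1.82 and 2.76. CYP81D8, a P450 known to respond to many chemicals, was at 2.005, 4.48 and 3.06 FPKM, then 9.15, 7.24 and 13.9, then 13.4, 10.1 and 10.01. In these 3 no mutant library overlapped the wild type. CYP71A12, of camalexin and indole metabolism, was a different case, at 0, 0.0255 and 0.0512 FPKM, then 0.442, 0.123 and 7.12, then 2.03, 0.718 and 0.410. Its cop1-6 ratio rests on replicate 3, and it was 1 of the 2 members too low to be tested. By annotation the members held 5 of 56 glutathione S-transferase genes, 4 of 143 UDP-glycosyltransferase genes, 3 of 55 MATE genes and 3 of 248 cytochrome P450 genes. In that order the families were 6.33%, 5.06%, 3.80% and 3.80% of the members and 0.208%, 0.530%, 0.204% and 0.919% of all genes. These counts include the similar neighbours GSTF6 and GSTF7, and DTX1 and AT2G04050, and the shares were not tested.

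**Figure D4:**
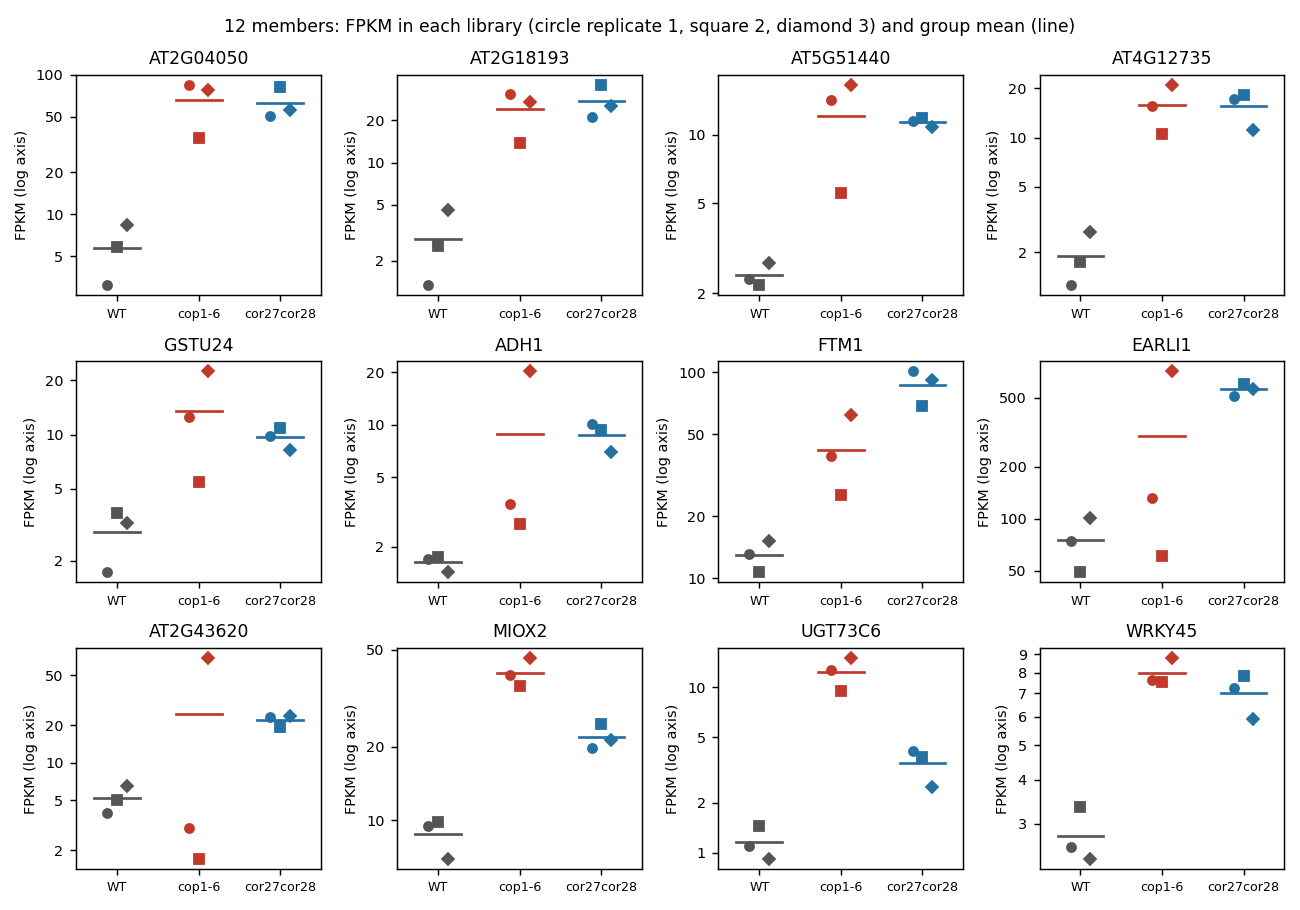
FPKM on a log axis in each of the 9 libraries for 12 members chosen across the roles, with 1 point per library and a bar at each genotype mean. AT2G04050, AT2G18193 and AT4G12735 are high in all 6 mutant libraries, AT2G43620 is high in cop1-6 replicate 3 and in cor27cor28, and UGT73C6 and MIOX2 are highest in cop1-6.

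Genes of the low-oxygen response were 7 of the members, and 2 of these kept the ratio without cop1-6 replicate 3. FTM1 (AT1G43800), a fatty acid desaturase induced by low oxygen, stood at 13.1, 10.7 and 15.2 FPKM in the wild type, at 39.1, 25.4 and 61.7 in cop1-6 and at 101, 68.8 and 91.4 in cor27cor28. The 3 groups did not overlap, and cor27cor28 was the highest. HB1, the haemoglobin that removes nitric oxide under low oxygen, was at 8.25, 9.57 and 15.3 FPKM, then 21.9, 13.6 and 66.1, then 73.8, 74.0 and 46.3, and cop1-6 replicate 2 lay within the wild-type range. ADH1, the alcohol dehydrogenase of ethanol fermentation, was at 1.71, 1.75 and 1.43 FPKM, then 3.51, 2.68 and 20.2, then 10.04, 9.36 and 6.94. Its libraries did not overlap the wild type, but without replicate 3 cop1-6 fell short of the ratio. AT4G33070, a pyruvate decarboxylase of the same pathway, was at 0.425, 0.406 and 0.308 FPKM, then 0.661, 0.752 and 10.1, then 2.25, 1.73 and 1.56. Wound-related AT4G33560 was at 4.46, 3.82 and 6.82 FPKM, then 18.8, 15.1 and 38.9, then 26.9, 17.2 and 26.9, and it kept the ratio, as FTM1 did.

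The 5 genes of the lipid-transfer family were uneven in cop1-6, and all 5 were at least 2 times higher in replicate 3 than in both other libraries. AZI1 (AT4G12470), which is needed for priming of systemic defence, stood at 186, 160 and 241 FPKM in the wild type, at 274, 147 and 1076 in cop1-6 and at 1014, 1111 and 1031 in cor27cor28. EARLI1 (AT4G12480), its cold-responsive relative, was at 74.4, 49.4 and 102 FPKM, then 132, 60.7 and 709, then 514, 602 and 560. In both genes all cor27cor28 libraries and cop1-6 replicate 3 were high, and cop1-6 replicate 2 lay within or below the wild-type range. AT4G12490 was at 2.998, 3.29 and 5.70 FPKM, then 31.7, 11.4 and 301, then 35.7, 26.6 and 32.5, and AT4G12500 at 0, 0.194 and 0.282, then 0.986, 0.215 and 69.0, then 2.98, 1.48 and 1.19. AT4G12490, with ratios of 23.2 and 6.52, was the only one of the 5 that kept the ratio without replicate 3. These 4 genes lie in 1 row on chromosome 4 between 7401087 and 7414955, on the minus strand. AZI1 and EARLI1 are 88.8% identical in coding sequence, EARLI1 and AT4G12490 88.2%, and AT4G12490 and AT4G12500 92.9%, so the level of each is uncertain.

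Transcription factors numbered 7, and in all of them both mutants lay above the wild type in every library. That held for 54 of the 79 members and for 5.19% of tested genes, and the rule chose on these values. WRKY45 was at 2.58, 3.35 and 2.39 FPKM in the wild type, at 7.62, 7.54 and 8.78 in cop1-6 and at 7.22, 7.84 and 5.94 in cor27cor28, so that both mutants overlapped each other and not the wild type. Rap2.6L, an ethylene response factor, was at 1.65, 2.73 and 2.098 FPKM, then 6.39, 7.06 and 9.10, then 7.35, 7.14 and 6.27. RHL41 (also known as ZAT12), a zinc finger protein of oxidative and light stress, was at 0.495, 0.890 and 0.823 FPKM, then 2.82, 2.74 and 4.71, then 3.40, 2.74 and 3.29. These 3 kept the ratio without cop1-6 replicate 3, as did NAC044. NAC044, which acts in the arrest of division after DNA damage, was at 1.27, 3.001 and 2.70 FPKM, then 10.3, 3.60 and 8.05, then 11.2, 17.56 and 9.96. NAC047 was at 1.16, 1.95 and 0.731 FPKM, then 2.89, 2.72 and 6.15, then 3.32, 4.06 and 3.79. WRKY60 was at 1.16, 2.60 and 1.70 FPKM, then 3.45, 2.67 and 10.7, then 5.13, 4.24 and 4.63, so that cop1-6 replicate 2 was just above the highest wild-type library. AT2G43140, annotated as a bHLH protein, was at 1.26, 0.470 and 1.35 FPKM, then 2.5, 1.45 and 5.23, then 4.64, 7.02 and 4.68.

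Immunity genes and kinases were also high in cop1-6 replicate 3, where 8 of 9 were at least 2 times above both other cop1-6 libraries. AT2G43620, a chitinase-family protein, stood at 3.99, 5.06 and 6.54 FPKM in the wild type, at 2.999, 1.70 and 68.6 in cop1-6 and at 23.2, 19.3 and 23.57 in cor27cor28. Cop1-6 replicates 1 and 2 lay below the wild type and the mean above it. MLO12, a relative of the mildew susceptibility gene MLO2, was at 1.41, 1.98 and 1.70 FPKM, then 1.15, 0.701 and 27.3, then 5.66, 3.64 and 5.68. IOS1, a receptor kinase of pattern-triggered immunity, was at 0.383, 1.06 and 1.02 FPKM, then 1.35, 0.974 and 22.7, then 4.38, 3.32 and 4.53. HR4, a relative of the RPW8 resistance genes, was at 27.1, 34.3 and 41.4 FPKM, then 39.7, 27.1 and 161, then 75.7, 71.6 and 63.7. In these 4 genes cor27cor28 lay above the wild type in all libraries, and in cop1-6 that held in replicate 3 but not in every other library. PLA2A, a lipid acyl hydrolase of pathogen responses, was the member of the group that was not 2 times higher in replicate 3, at 0.0861, 0.728 and 0.649 FPKM, then 4.03, 1.70 and 5.65, then 3.56, 2.33 and 1.63. The peroxidase AT5G64120 was at 7.82, 13.2 and 10.8 FPKM, then 40.3, 32.8 and 320.4, then 33.6, 35.3 and 36.1. PLA2A and AT5G64120 were the 2 of 9 that kept the ratio.

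Genes of hormones, calcium and growth numbered 7. PYL6, an abscisic acid receptor, was at 3.03, 3.33 and 3.49 FPKM in the wild type, at 10.1, 7.32 and 10.2 in cop1-6 and at 11.4, 9.92 and 8.43 in cor27cor28. AT2G41730, annotated as a calcium-binding site protein, was at 2.94, 3.51 and 5.46 FPKM, then 17.2, 8.83 and 13.8, then 11.4, 12.5 and 11.6. Both kept the ratio without cop1-6 replicate 3, with no overlap. ORS1 (AT2G41230), which promotes organ growth, was at 5.41, 6.98 and 3.10 FPKM, then 7.17, 10.3 and 37.2, then 27.4, 33.2 and 24.0. ACS7, an enzyme of ethylene synthesis, was at 0.994, 1.43 and 0.723 FPKM, then 1.28, 2.12 and 16.2, then 6.20, 2.98 and 4.40. RGF7, a root growth peptide gene, was at 0.874, 0.560 and 0.118 FPKM, then 0.413, 0.276 and 8.68, then 2.62, 2.48 and 1.91. In these 3 the cop1-6 mean was carried by replicate 3.

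Enzymes of metabolism, the cell wall and other named products made up 12 members, and 7 of them kept the ratio without cop1-6 replicate 3. MIOX2, an inositol oxygenase induced at low sugar, stood at 9.45, 9.88 and 6.97 FPKM in the wild type, at 39.4, 35.4 and 46.0 in cop1-6 and at 19.7, 24.7 and 21.4 in cor27cor28. ICL, isocitrate lyase of the glyoxylate cycle that turns seed oil into sugar, was at 0.725, 0.723 and 0.585 FPKM, then 6.35, 10.8 and 7.77, then 1.98, 2.91 and 4.08. For both, the 3 genotypes formed separate ranges. The seed marker sum given above was highest in cop1-6 replicate 2, the library with the highest ICL, and its part was not tested. AT1G17960, annotated as a threonyl-tRNA synthetase, was at 1.07, 1.52 and 1.21 FPKM, then 9.18, 2.30 and 7.05, then 4.999, 14.9 and 9.40. AT2G43150, an extensin-like protein next to AT2G43140, was at 21.5, 24.8 and 35.2 FPKM, then 71.9, 52.4 and 91.4, then 45.3, 44.9 and 84.8. BCB, a blue copper protein of oxidative stress, was at 1.23, 2.87 and 1.46 FPKM, then 8.08, 7.28 and 38.4, then 7.79, 6.14 and 9.56. AT2G17740, a cysteine/histidine-rich protein, was the other member too low to be tested, with 16.6 FPKM in cop1-6 replicate 3 and at most 2.62 FPKM elsewhere.

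The annotated product was uncharacterized for 12 members, of which XBAT34, Rap2.6L and AT5G66985 were placed in other groups and 9 form this group. Of these 9, 5 kept the ratio without cop1-6 replicate 3. In that library 4 were at least 2 times above both other cop1-6 libraries. Values are given for some of the group. AT4G12735 stood at 1.26, 1.75 and 2.64 FPKM in the wild type, at 15.7, 10.5 and 21.1 in cop1-6 and at 17.3, 18.17 and 11.1 in cor27cor28, with ratios of 5.82 and 5.74. AT5G13210 was at 0.755, 1.83 and 2.79 FPKM, then 15.7, 7.35 and 14.7, then 16.1, 19.1 and 11.96. AT5G24640 was at 0, 0.663 and 0.554 FPKM, then 3.69, 2.39 and 2.99, then 3.64, 2.80 and 1.71. These 3 had no overlap with the wild type and kept the ratio, and their cop1-6 and cor27cor28 values lay over each other. AT1G53542 was listed at 0 in all wild-type libraries, at 3.38, 0 and 0 FPKM in cop1-6 and at 3.72, 4.07 and 0 in cor27cor28, so both of its ratios rest on libraries that differ within a genotype.

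Position and family gave a further description. Chromosome 2 held 25 of 79 members (31.6%), against 15.7% of all genes. Only protein-coding genes were counted between members. There were 5 pairs of members with no protein-coding gene between them: GSTF7 and GSTF6, DTX1 and AT2G04050, AT2G18190 and AT2G18193, AT2G43140 and AT2G43150, and AZI1 and EARLI1. Another 3 pairs had 1 protein-coding gene between them: EARLI1 and AT4G12490, AT4G12490 and AT4G12500, and EDA39 and AT4G33070. The protein-coding genes inside the AZI1 row, AT4G12485 and AT4G12495, were listed at 0 in all libraries. AT4G33060, between EDA39 and AT4G33070, was at 9.04, 7.86 and 8.76 FPKM in the wild type, at 7.91, 6.99 and 8.63 in cop1-6 and at 10.9, 12.2 and 12.8 in cor27cor28, far from the ratio. Members were short, with a median gene length of 1725 bases against 2427 bases for tested genes.

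The threshold of 2 cut through a continuous range. Just inside lay CYP71A12 with a smaller ratio of 2.003, AT2G43140 with 2.005 and WRKY60 with 2.009. Just outside lay AT5G42830 with 1.997 in cor27cor28, AT1G12805 with 1.996 in cop1-6, and AT1G75945 with 1.991 in cop1-6. AT1G75945 had a ratio of 22.9 in cor27cor28, where it stood at 60.2, 56.7 and 61.9 FPKM against 1.28, 1.12 and 2.56 in the wild type.

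The rule did not use the difference between the mutants, which was tested with limma on log2(FPKM + 1) across 17075 genes. UGT73C6, ICL, GSTU4 and MIOX2 were higher in cop1-6, and EARLI1, AZI1, HB1, FTM1, AT2G18190, NAC044 and AT2G43140 were lower in cop1-6 than in cor27cor28. Those are 4 and 7 of the 77 members tested, at a Benjamini-Hochberg adjusted p under 0.05. Of all tested genes 9.19% were higher in cop1-6 and 56.6% lower, so a smaller share of the members than of all genes was lower. The median difference of the members was -0.03 on the log2 scale, against -0.36 for all tested genes. Since both mutants had to reach the ratio, the size of the members' difference is not fully free of the rule.

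UGT73C6 differed by 1.59 ± 0.18 (log2, SE; limma adjusted p = 2.32e-05, n = 3 per genotype), with all cop1-6 libraries above all cor27cor28 libraries. ICL differed by 1.23 ± 0.20 (limma adjusted p = 0.000338) and MIOX2 by 0.84 ± 0.13 (limma adjusted p = 0.000252), both with separate ranges. These were the 3 members of 77 with all of cop1-6 above cor27cor28 (9.94% of tested genes). GSTU4 differed by 0.90 ± 0.28 (limma adjusted p = 0.0135), with overlapping libraries, and by 0.61 without cop1-6 replicate 3 (limma adjusted p = 0.0512).

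On the other side FTM1 differed by -1.10 ± 0.25 (limma adjusted p = 0.00235) and AT2G18190 by -0.98 ± 0.30 (limma adjusted p = 0.0129). They were the 2 members with all of cop1-6 below cor27cor28 (59.8% of tested genes). In the remaining 5 called lower the groups overlapped. AZI1 differed by -1.58 ± 0.50 (limma adjusted p = 0.0152), EARLI1 by -1.64 ± 0.62 (limma adjusted p = 0.0355) and HB1 by -1.19 ± 0.42 (limma adjusted p = 0.0271). NAC044 differed by -0.80 ± 0.31 (limma adjusted p = 0.0389) and AT2G43140 by -0.76 ± 0.30 (limma adjusted p = 0.0396). FTM1 and HB1 belong to the low-oxygen response and AZI1 and EARLI1 to the row of lipid-transfer genes. AT2G43620 differed by -1.33 ± 0.86 and did not pass (limma adjusted p = 0.182), its cop1-6 libraries lying on both sides of cor27cor28.

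Without cop1-6 replicate 3 the picture turned. Then 35 members were lower and 3 higher in cop1-6 (52.8% and 8.56% of 16962 tested genes), the lower ones being a smaller share of the members than of all genes, with a median difference of -0.50 against -0.37 for all genes. Of the 39 tested members that lose the cop1-6 ratio without replicate 3, 30 were lower, which follows in part from the choice of the split. AT2G43620 then differed by -2.80 (limma adjusted p = 2.39e-07), AZI1 by -2.38 (limma adjusted p = 1.97e-06) and EARLI1 by -2.63 (limma adjusted p = 1.19e-05). UGT73C6 differed by 1.45, ICL by 1.25 and MIOX2 by 0.75, the 3 members still higher. In all, 10 members were called with and without that library, and GSTU4 was the one that was not. Without cop1-6 replicate 2 instead, 10 members were higher and 1 lower in cop1-6, against 1474 higher and 8484 lower of 16974 tested genes. The median difference was then 0.24 for members and -0.35 for all tested genes.

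The direction also depends on how libraries are scaled, because the median of all genes was below 0. With median-of-ratios scaling the median over all tested genes was -0.02 and over the members 0.31, with 3300 genes higher and 2397 lower against 1569 and 9666 before. With equal totals 1847 genes were higher and 7619 lower. With median-of-ratios scaling 8 members were higher and 1 lower, which was FTM1 at -0.71 (limma adjusted p = 0.0496). UGT73C6, ICL, MIOX2 and GSTU4 stayed higher, and AZI1, EARLI1, HB1, AT2G18190, NAC044 and AT2G43140 kept their sign but not their call.

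**Figure D5:**
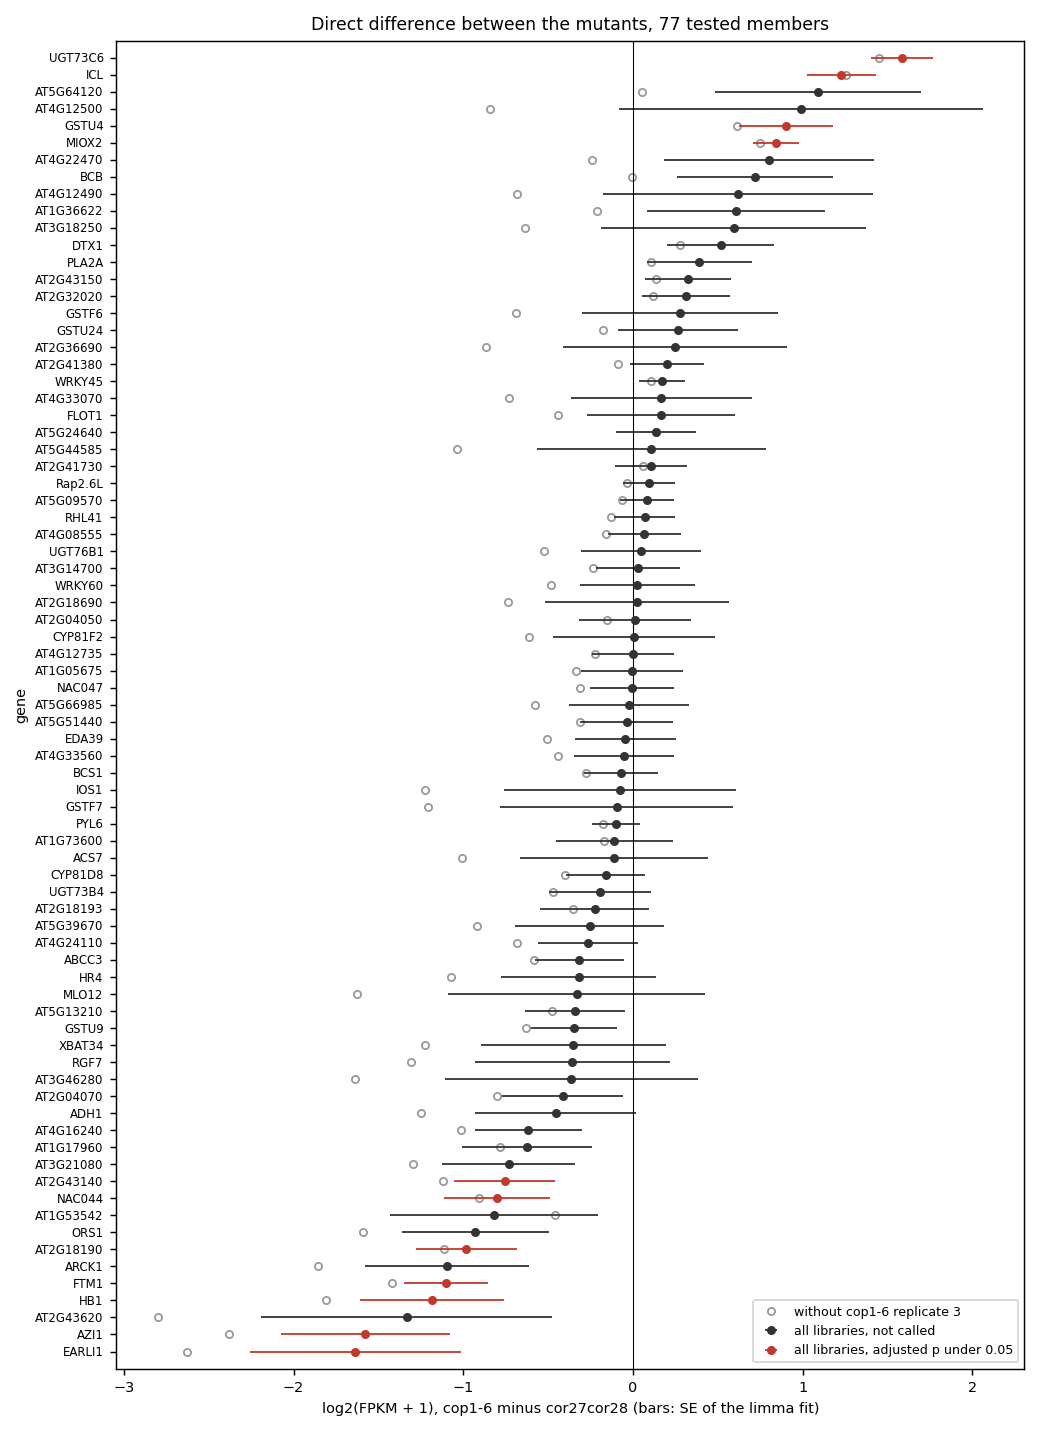
Points are the difference in log2(FPKM + 1) of cop1-6 minus cor27cor28 for the 77 tested members, in order of size, with bars of 1 SE, members at an adjusted p under 0.05 in red, and open circles for the difference without cop1-6 replicate 3. The 4 called above 0 are UGT73C6, ICL, GSTU4 and MIOX2, and the 7 called below 0 lie between -1.64 and -0.76.

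The other genes of the same pathways were read from lists, leaving out members. UGT74E2 counts as no member, so it was not left out wherever a list holds it. On the mitochondrial stress list of 19 genes, 6 were members. Of the other 12 tested, 9 were higher and 1 lower in cop1-6 against the wild type (10.9% and 38.6% of all tested genes), and 6 were higher and 0 lower in cor27cor28 (14.6% and 7.29%). Over all genes these calls were 1865 higher and 6583 lower in cop1-6 and 2493 and 1245 in cor27cor28. Under median-of-ratios scaling cop1-6 had 3825 and 3494 and cor27cor28 1260 and 2125, and under equal totals cop1-6 had 2993 and 4028 and cor27cor28 4322 and 841. On the list the higher counts were 9 and 6 under the former scaling and 9 and 7 under the latter. Leaving out cop1-6 replicate 3 gave 7 and 6. The median log2 differences were 0.68 and 0.69, against -0.21 and 0.10 for all tested genes. AOX1A, the alternative oxidase that is the classical marker of this pathway, stood at 8.41, 12.9 and 9.88 FPKM in the wild type, at 40.6, 27.9 and 40.4 in cop1-6 and at 21.1, 22.9 and 20.1 in cor27cor28. It rose by 1.71 ± 0.16 in cop1-6 (log2, SE; limma adjusted p = 3.20e-06) and by 0.99 ± 0.16 in cor27cor28 (limma adjusted p = 0.00152). Its cor27cor28 mean did not reach the ratio of 2, so it is no member. ANAC013, the regulator itself, was at 5.23, 4.45 and 4.98 FPKM, then 14.8, 13.6 and 14.9, then 8.17, 11.2 and 11.1. It rose by 1.39 ± 0.12 (limma adjusted p = 2.06e-06) and 0.91 ± 0.12 (limma adjusted p = 0.000636). UPOX, a mitochondrial protein induced by oxidative stress, rose by 1.49 ± 0.18 in cor27cor28 (limma adjusted p = 0.000325). NDA1, an internal NAD(P)H dehydrogenase, was at 7.54, 6.33 and 8.36 FPKM, then 89.3, 69.0 and 73.0, then 6.07, 7.14 and 5.60, and rose by 3.21 ± 0.13 in cop1-6 (limma adjusted p = 3.42e-09).

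The low-oxygen list of 26 genes was written after the members had been seen, and 7 of it are members. Of the other 14 tested, 4 rose in cop1-6 and 11 in cor27cor28, and 0 were lower in either. Among all tested genes 10.9% rose and 38.6% fell in cop1-6, and 14.6% rose and 7.29% fell in cor27cor28. Without cop1-6 replicate 3, 4 were higher and 2 lower in cop1-6. Between the mutants 9 of the 14 were lower and 1 higher in cop1-6, against 56.6% lower and 9.19% higher among all tested genes, so the list stands near the background there. With median-of-ratios scaling these were 3 and 2. The medians were 0.31 in cop1-6 and 0.94 in cor27cor28. PCO1, an oxygen-sensing cysteine oxidase, stood at 3.70, 3.38 and 2.83 FPKM in the wild type, at 3.76, 2.90 and 6.12 in cop1-6 and at 11.2, 11.4 and 10.9 in cor27cor28. It rose by 1.51 ± 0.18 in cor27cor28 (log2, SE; limma adjusted p = 0.000391), where all libraries lay above the rest. HRA1, a trihelix repressor in the same response, was at 1.59, 1.33 and 1.41 FPKM, then 2.62, 1.99 and 3.53, then 4.57, 4.57 and 5.17. It rose by 0.59 ± 0.15 in cop1-6 (limma adjusted p = 0.00747) and by 1.24 ± 0.15 in cor27cor28 (limma adjusted p = 0.000461). HRE2, an ethylene response factor of low oxygen, rose by 0.98 ± 0.17 in cor27cor28 (limma adjusted p = 0.00217). PP2-A11 rose by 1.15 ± 0.09 in cop1-6 (limma adjusted p = 6.82e-07), and RBOHD, an NADPH oxidase, by 0.45 ± 0.11 (limma adjusted p = 0.00427).

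On the detoxification list of 23 genes, 5 were members. Of these GSTU24 is also on the mitochondrial stress list. Of the other 11 tested, 3 rose and 3 fell in cop1-6 and 3 rose in cor27cor28, with medians of 0.18 and 0.10. The shares of all tested genes were 10.9% higher and 38.6% lower in cop1-6, and 14.6% and 7.29% in cor27cor28. With either other scaling 6 rose and 1 fell in cop1-6, and without cop1-6 replicate 3 only 1 rose and 5 fell. Among the rest GSTU5 rose by 0.44 ± 0.08 in cop1-6 (log2, SE; limma adjusted p = 0.000557), while GSTU7 fell by 0.71 there (limma adjusted p = 4.71e-05). UGT73B5, the neighbour in family of UGT73B4, rose by 0.90 ± 0.19 in cor27cor28 (limma adjusted p = 0.00718). UGT75B1 fell by 0.33 in cop1-6 (limma adjusted p = 0.00319), and in cor27cor28 GSTU8 rose by 0.91 ± 0.24 (limma adjusted p = 0.0204) and GSTF2 by 1.08 ± 0.35 (limma adjusted p = 0.0446). On the defence list of 25 genes CYP71A12 was the 1 member. Of the other 14 tested, 3 rose and 2 fell in cop1-6, and 2 rose and 2 fell in cor27cor28, beside the same shares of all tested genes. In cor27cor28 equal totals gave 5 and 2, and median-of-ratios scaling gave 1 and 2. Without cop1-6 replicate 3 the defence counts were 3 and 4 in cop1-6 and 4 and 2 in cor27cor28. PAD3, of camalexin synthesis, rose by 1.35 ± 0.32 in cor27cor28 (limma adjusted p = 0.0117), and PR5 rose by 0.93 ± 0.12 in cop1-6 (limma adjusted p = 5.04e-05). THI2.2, a thionin, rose by 4.48 ± 0.13 in cop1-6 (limma adjusted p = 3.93e-10) and fell by 0.75 in cor27cor28 (limma adjusted p = 0.00265). EDS1, a regulator of basal immunity, fell by 0.80 in cop1-6 (limma adjusted p = 0.000179), and PRB1, a relative of PR1, fell by 0.84 in cor27cor28 (limma adjusted p = 0.00959).

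No member was on the lists for the clock, heat shock, cold and abscisic acid, iron deficiency, phosphate starvation, flavonoid synthesis, seed markers or root markers. Counts of genes higher and lower in cop1-6 were 7 and 9 of 20 for the clock, 3 and 2 of 9 for heat shock, 2 and 6 of 11 for cold and abscisic acid, and 10 and 0 of 11 for iron deficiency. They were 0 and 5 of 8 for phosphate, 11 and 0 of 11 for flavonoids, 3 and 0 of 3 for seed and 1 and 7 of 8 for root markers. In cor27cor28 the same counts were 4 and 3, 1 and 0, 0 and 2, and 0 and 0 for the first 4 lists, and 1 and 0, 2 and 0, 0 and 0, and 0 and 4 for the others. Among all tested genes 10.9% were higher and 38.6% lower in cop1-6, and 14.6% and 7.29% in cor27cor28. With median-of-ratios scaling the clock counts became 8 and 8 in cop1-6 and 3 and 5 in cor27cor28.

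Genes outside the group with the mitochondrial dysfunction motif in the same window were read in the tests against the wild type. UGT74E2 is among them, although it reached both ratios and was left out of the group only by name. Of 157 such genes 22.3% were higher in cop1-6 and 21.7% in cor27cor28. Among 16841 genes outside the group without the motif these shares were 10.5% and 14.3%. The shares called lower were 28% and 7.01% with the motif and 38.8% and 7.33% without it, so that in cop1-6 more genes with the motif were lower than higher. Their median differences were -0.05 in cop1-6 and 0.17 in cor27cor28 with the motif, and -0.21 and 0.10 without it. With median-of-ratios scaling the higher shares were 38.5% and 15.4% with the motif and 22.1% and 7.04% without it, and the lower shares 15.4% and 8.97% with it and 20.7% and 12.6% without it. The median in cop1-6 was then 0.17 with the motif and 0.01 without it, a change of sign. These genes share the wild-type libraries between the comparisons, and the difference itself was not tested.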

How the data were processed

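The deposited values are FPKM, 1 per gene and library, as the authors made them. Per the submitters' processing notes the tools were DESeq 1.18.0, Bowtie2, TopHat, HISAT2 2.2.1.0, Trimmomatic 0.36 and Cufflinks, with TAIR10 and no role attached. The sources used here do not say which of them made the FPKM or whether strand was used. Of 26997 entries 13 had no gene name (0.000197% to 0.00203% of a library's FPKM) and were left out, and 26984 matched TAIR10.1, of which 4512 were at 0 throughout.

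Members, lists and roles were chosen with earlier results of these data known. Tests used limma 3.58.1 in R 4.3.3 with a variance trend on log2(FPKM + 1), which understates changes of low genes, over all 9 libraries and 17075 genes that reached 1 FPKM in 3 or more libraries. A Benjamini-Hochberg adjusted p under 0.05 was a call; 2 members did not pass the filter. Differences are on that log2(FPKM + 1) scale. Tables were made with Python 3.11.15, NumPy 2.4.6, pandas 2.3.3 and Biopython 1.88, and figures with Matplotlib 3.10.9. The fit was tested on simulated data.

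Genes named by rule were the 15 members with the highest smaller ratio and at least 5 FPKM on average in both mutants, members called between the mutants, members on the lists, direct neighbours, the 3 on either side of the threshold, transcription factors, and up to 3 called genes per list. All others, such as MLO12, IOS1, HR4, PYL6, ACS7, BCB, ABCC3 and CYP81D8, were chosen after their values were seen, as were the low-oxygen list and the 12 members plotted by library. Alternatives changed the pseudocount, filter, scaling, ratio, replicate block, variance trend and each library in turn. Replicate numbers showed no clear pairing of samples: deviations of same-numbered libraries correlated between -0.184 and 0.125, with 1 of 9 over 0.1. Deviations from a mean of 3 libraries cannot decide whether samples were paired.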

Additional observations from a re-analysis of the deposited data

How the results depend on the processing

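The number of members, 79, depends on the rule. It was 300 with a pseudocount of 0.1 and 21 with 5, 253 at a ratio of 1.5 and 20 at 3. It was 69 with median-of-ratios scaling, of which 61 were shared, 97 with equal totals, and 54 when all mutant libraries had to exceed the wild type. Leaving out single libraries gave 40 to 90, the lowest without cop1-6 replicate 3, and 66 without wild type replicate 1.

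The number of members called between the mutants, 11, was 7 with a pseudocount of 0.1, 7 without a filter, and 6 to 38 when 1 library was left out: 7 without cop1-6 replicate 1, 38 without replicate 3 and 6 without cor27cor28 replicate 2. Without cop1-6 replicate 2 the number was again 11, but 10 were higher and 1 lower in cop1-6, against 4 and 7 with all libraries. FTM1, ICL, MIOX2 and UGT73C6 kept their calls under all 15 alternatives. Of the other 7, AT2G43140 lost its call in 10, NAC044 in 9, EARLI1 in 8, HB1 in 6, AT2G18190 in 4, and AZI1 and GSTU4 in 3 each, and none changed sign. Over all genes, calls between the mutants went from 11235 to 5697 with median-of-ratios scaling and to 9214 to 11409 without single libraries. Calls in cor27cor28 against the wild type, 3738, were 1834 to 4108 without single libraries, with 1834 without cor27cor28 replicate 2 and 2123 without replicate 3, and in cop1-6 they were 7245 to 8550.

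With a replicate block, 12 members were called, and 7921, 2967 and 10691 genes were called in cop1-6, in cor27cor28 and between the mutants. The numbers showed no clear pairing, since libraries with different numbers correlated over a similar range, between -0.162 and 0.211. Of named genes outside the group, GSTF2 lost its call in 11 alternatives, GSTU8 in 4 and UGT75B1 in 2. Among results for named genes, lists and the motif, 1434 values were unchanged, 60 lost a call and 112 counts moved by more than 1.5 times, most of them counts of a few genes. Unchanged means that a gene kept its call and sign, or that a count was equal or moved by no more than 1.5 times. None of these named genes changed sign. Medians over genes outside the group were not counted there, and with median-of-ratios scaling that of genes with the motif went from -0.05 to 0.17 in cop1-6 and from -0.31 to 0.01 between the mutants, where calls went from 21 higher and 69 lower to 41 and 21. On the detoxification list in cop1-6, 3 higher and 3 lower became 6 and 1 with that scaling and 1 and 5 without cop1-6 replicate 3. With 3 libraries per genotype and no read numbers, the precision of low FPKM values is unknown.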
